A study of Homo sapiens with 74 samples.

Results

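The regions described here are the sites on chromatin that Cut&Run recovered in both libraries of V5-tagged APEX2 expressed in HEK293T cells. APEX2 replicate 1 held 5692 peaks and replicate 2 held 4218, together 9910 of the 92122 peaks in the 72 lists of 36 zinc-finger proteins (ZFPs). Overlapping peaks of the 2 replicates were merged, which gave 1371 regions. The 4 of them on APEX2 exons or at EEF1A1 were set apart, and the remaining 1367 regions were described. HEK293T is a human embryonic kidney line that carries the SV40 large T antigen. The APEX2 cells had been transfected with a plasmid that drove the APEX2 open reading frame with a C-terminal V5 tag from an EF1-alpha promoter, and were taken after 48 h. The V5 mock IP control was un-transfected HEK293T cells treated with the same V5 antibody, and its own peak lists were not used here. The fold of a peak is its signal over the mock IP library of the same batch. The tagged protein was made from the plasmid in addition to whatever APEX2 the cells make themselves.

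APEX2 is an apurinic/apyrimidinic endonuclease of the base excision repair family. It is a weak endonuclease with strong 3′ end-processing activity, it carries a zinc finger of the GRF type that binds single-stranded DNA, it binds the sliding clamp PCNA, and it takes part in ATR-CHK1 signalling after oxidative damage. It is not the engineered peroxidase that shares the name. In Cut&Run, nuclease held at the V5 antibody clips out the DNA around the tagged protein, whether that protein touches the DNA itself or sits there through a partner.

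The libraries matched their label. The 3 regions on APEX2 exons on chromosome X had folds of 2014 to 6429 in replicate 1 and of 861 to 2811 in replicate 2, and the EEF1A1 region on chromosome 6, the gene whose promoter drives the plasmid, had folds of 5835 and 2308. These values lay far above any other APEX2 region. Of the 36 ZFPs, 32 had a region on their own exons in both replicates and 4 did not (MBNL1, TRIM55, U2AF1 and ZMAT5). Peak lists hold no expression values, so the cell type could not be checked against marker genes.

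The sequences under the regions with the highest folds at promoters are shown first, because they show how rich in GC these sites were and how differently they were built. Each is the hg38 sequence of the summit and 100 bp to each side of it, plus strand, from chr2:177263626-177263826 for NFE2L2, chr19:9819181-9819381 for FBXL12 and chr17:59106823-59107023 for TRIM37. Capitals mark matches, on either strand, to the promoter motifs that were searched.
NFE2L2: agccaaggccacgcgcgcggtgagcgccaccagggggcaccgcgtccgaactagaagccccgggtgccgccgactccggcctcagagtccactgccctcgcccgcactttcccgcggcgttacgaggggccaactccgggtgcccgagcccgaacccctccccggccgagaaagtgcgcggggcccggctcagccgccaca
FBXL12: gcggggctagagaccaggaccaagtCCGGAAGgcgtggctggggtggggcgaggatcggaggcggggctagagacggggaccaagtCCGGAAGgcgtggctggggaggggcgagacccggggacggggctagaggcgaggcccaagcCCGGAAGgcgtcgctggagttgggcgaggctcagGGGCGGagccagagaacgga
TRIM37: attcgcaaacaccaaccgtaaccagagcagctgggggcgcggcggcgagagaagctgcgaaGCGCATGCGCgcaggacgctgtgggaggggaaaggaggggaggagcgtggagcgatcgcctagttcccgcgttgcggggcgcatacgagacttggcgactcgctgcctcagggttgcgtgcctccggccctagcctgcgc
The NFE2L2 window had a GC content of 74.6%, 27 CpG dinucleotides and no match to any motif searched. The FBXL12 window held CCGGAAG, the core bound by ETS factors, at positions 26, 87 and 148 counted from its 5′ end, spaced 61 bp apart. The 61-base stretches around these matches were 80.3% to 88.5% identical to each other. The TRIM37 window held the palindromic word of NRF1 (GCGCATGCG and its reverse complement, overlapping by all but 1 base on each side).

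The regions lay mostly at promoters. Of the 1367 regions, 1175 (86.0%) lay within 1 kb of an annotated transcription start site (TSS) of any gene in GENCODE 44. Another 12 lay on other exons, 64 in introns and 116 outside annotated genes. The last count takes in regions on unplaced or unlocalized contigs, for which the annotation used held no genes. In all, 30 of the 1367 regions lay on contigs. A protein-coding TSS lay within 1 kb of 1066 regions (78.0%), and 946 regions covered a TSS. Among these 1066 regions the summit lay at a median of 17 bp upstream of the TSS (position -17), and 738 summits (69.2%) lay within 200 bp of it. Where a region covered more than 1 start, the start nearest its middle was used, with named genes preferred. Part of this closeness can come from that choice. In 198 of the 1066 (18.6%) protein-coding TSSs of both strands lay within reach. Of the genes with an APEX2 region within 1 kb, 26.4% had a protein-coding gene start on the opposite strand within 1 kb, against 13.4% of all 20033 protein-coding genes. A region at 1 start of such a pair also counts the gene of the other start. This counting alone can raise the first share. These shares are descriptions without a test.

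Folds were modest and repeated only in part. The median fold of the regions was 5.42 (1.47 to 39.0) in replicate 1 and 5.57 (1.63 to 14.9) in replicate 2. The higher fold of a region was within 1.5 times the lower in 1111 regions (81.3%). Across the 1367 regions the folds of the 2 replicates had a Spearman rho of 0.303 and a Pearson r of 0.413 on the log2 scale, where all regions come from the same libraries and are not independent, and whether both replicates were called against 1 mock IP library is not given in the labels. Both folds were at least 10 in only 5 regions and at least 7 in 74. Most peaks were found in 1 replicate alone, since 25.2% of the peaks of replicate 1 and 33.6% of those of replicate 2 overlapped a peak of the other. Peaks found in both lists had a higher median fold than the others, 5.40 against 4.67 in replicate 1 and 5.57 against 4.87 in replicate 2. They also lay within 1 kb of a TSS more often, 85.2% against 65.3% in replicate 1 and 84.1% against 75.9% in replicate 2.

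**Figure D1:**
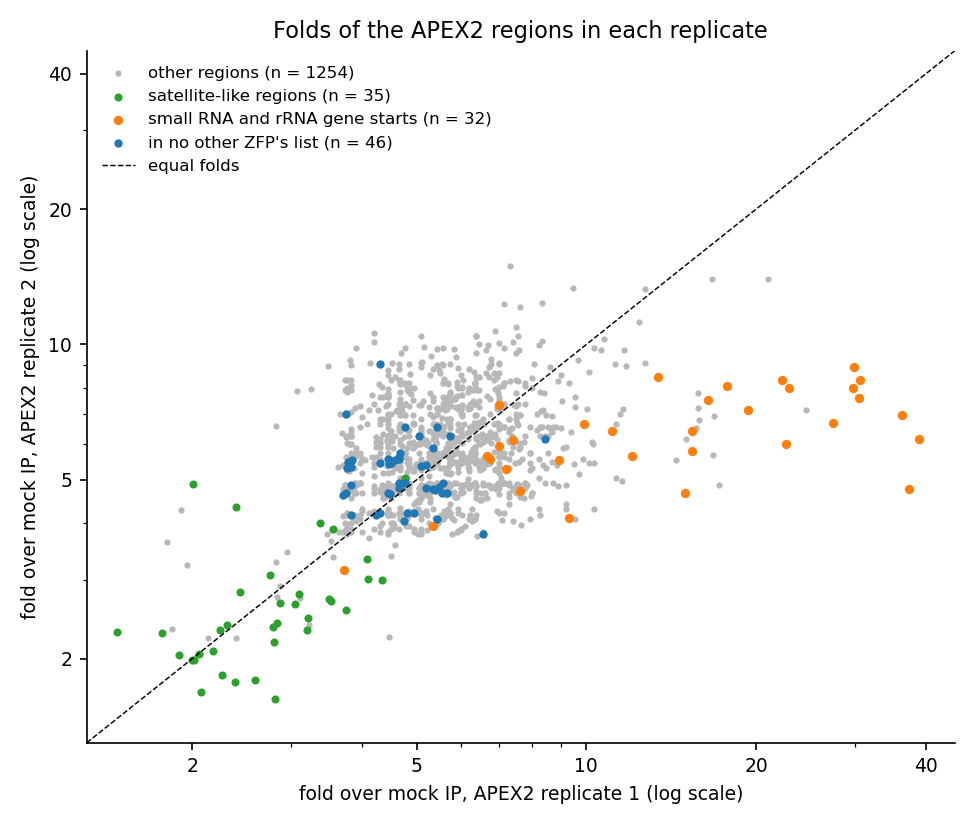
Fold over mock IP of each of the 1367 APEX2 regions in replicate 1 (x axis) and replicate 2 (y axis), both on log scales, with the line of equal folds. The 32 regions at small RNA and ribosomal RNA gene starts reach 39.0 on the x axis and at most 8.89 on the y axis, and the 35 satellite-like regions sit at the lower left.

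The widest gap between the replicates was at genes for abundant non-coding RNAs. This group was formed after the values had been seen: 32 regions lay within 1 kb of the starts of U1 and U2 small nuclear RNA genes, ribosomal RNA genes, or those of 7SL, RNase P and U3 RNA, counting with the ribosomal RNA genes the microRNA genes annotated inside their repeat, which were the nearest start for 5 of the 9 regions there. Their fold was higher in replicate 1 in 31 of the 32, with a median of 15.2 in replicate 1 and 6.28 in replicate 2. The other 1335 regions had medians of 5.39 and 5.57. They included the 30 regions on contigs, which could not enter the group because no starts were annotated there. Of these 30, 18 had the higher fold in replicate 1. A fold of at least 10 was seen in 8 of them in replicate 1 and in 0 in replicate 2. RNU1-1, a U1 gene of the major spliceosome, had folds of 29.7 and 8.01, and RNU1-2 had folds of 36.3 and 6.96. The 11 regions at U2 genes in the tandem array on chromosome 17 had folds of 5.35 to 30.5 in replicate 1 and 3.95 to 8.89 in replicate 2. The SNORD3B-1 region, at a U3 gene, had the highest fold of replicate 1, 39.0, and a fold of 6.16 in replicate 2. Of the 55 regions with a fold of at least 10 in replicate 1, 20 belonged to this group, and none of the 22 such regions in replicate 2 did. These genes are repeated in the genome, so reads of 1 copy can be assigned to another. The 32 regions were also shared widely, with peaks in 5 to 32 of the 35 other ZFPs. What part the repeated copies or the mock IP control had in the gap was not tested. The mitochondrial genome was covered from end to end as 1 region, with folds of 2.82 and 6.58 and peaks in 25 other ZFPs.

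The highest promoter regions belonged to genes of several unrelated functions. Those with the highest lower fold of the 2 replicates are named here. NFE2L2, the gene of the oxidative stress regulator NRF2, had folds of 12.7 and 13.3 at chr2:177263570-177263892. FBXL12, which encodes an F-box protein of ubiquitin ligases, had folds of 12.4 and 11.2. Both NFE2L2 and FBXL12 had a fold above 10 in each replicate.

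Genes of protein turnover, signalling and trafficking made up part of the remaining top regions. SCAMP4, a secretory membrane protein gene, had folds of 10.3 and 9.83 in a region that also reached ADAT3. TRIM37, a ubiquitin ligase gene, had folds of 11.6 and 9.74, and TIAM1, which encodes a RAC exchange factor, had folds of 10.6 and 9.74. DCAF11, a CUL4 ligase receptor gene, had folds of 10.1 and 8.68 in a region that also reached NRL. VPS35, a retromer subunit, had folds of 9.01 and 8.57 in a region that also lay within 1 kb of the start of ORC6, a subunit of the origin recognition complex. MYH9, the heavy chain of non-muscle myosin, had folds of 8.01 and 8.01. In all of these genes the 2 replicates differed by less than 1.5 times.

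GADD45A, a growth arrest gene induced by DNA damage, had folds of 9.67 and 9.22. Genes of mitochondria were also among the highest: COX20, an assembly factor of cytochrome c oxidase, had folds of 8.63 and 8.93, and TOMM20, an import receptor of the outer membrane, had folds of 8.33 and 12.4. DGCR8, the partner of DROSHA in microRNA processing, had folds of 8.91 and 8.31. IDI1, an isomerase of the sterol pathway, had 8.08 and 9.06, and PAGR1, a subunit of histone methyltransferase complexes, had 8.01 and 8.41. The IDI1 region also reached WDR37, and the PAGR1 region also reached an unnamed protein-coding gene. TCAIM had folds of 11.3 and 9.05, TMEM87B of 9.33 and 8.19, and MATN1, a cartilage matrix gene, of 8.27 and 7.85. The region between RPS29 and the 7SL gene RN7SL1 had folds of 22.2 and 8.35, the widest gap of the promoter regions named here, and it covered the start of RN7SL1 and lay 164 bp from that of RPS29.

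**Figure D2:**
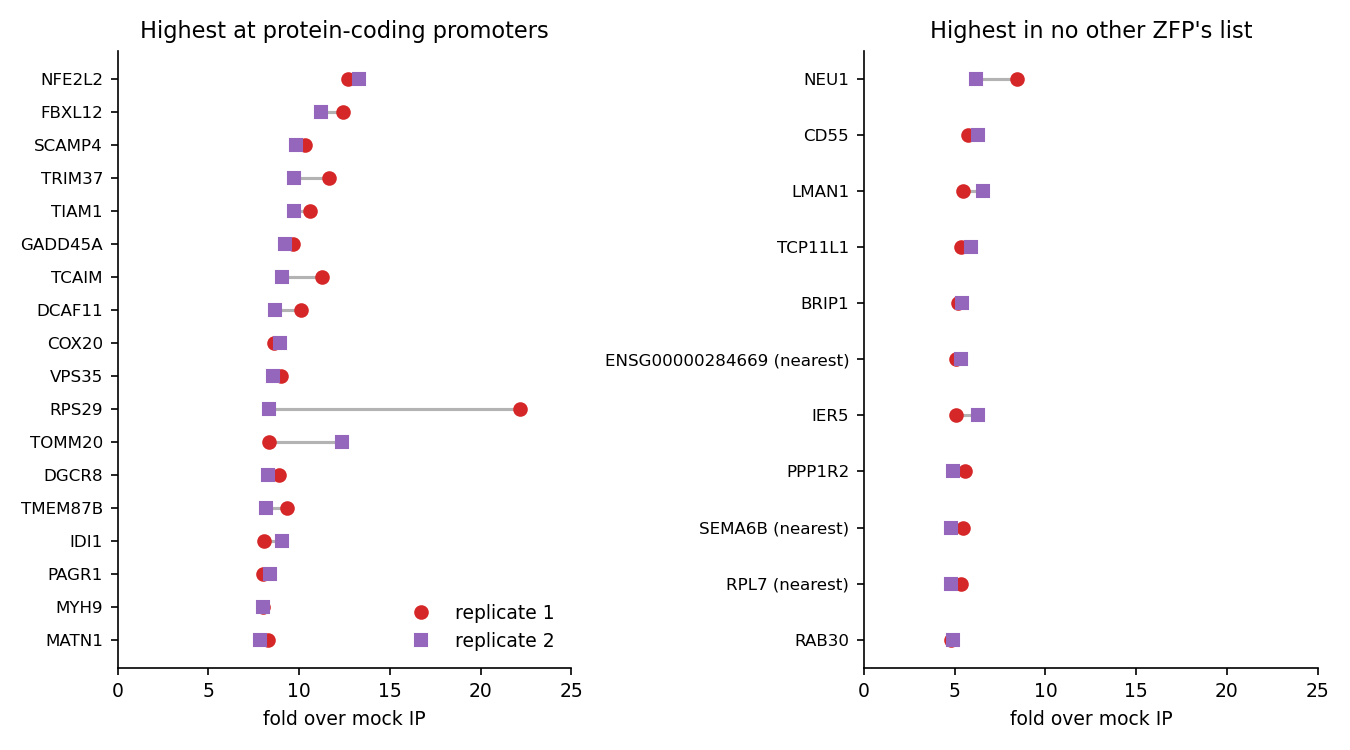
Fold over mock IP (x axis) in replicate 1 (circles) and replicate 2 (squares) for the highest regions at protein-coding promoters (left) and the highest regions in no other ZFP's list (right), with a line joining the 2 replicates. Promoter regions run up to 22.2 and the regions in no other list up to 8.44. The label "nearest" marks regions over 1 kb from a protein-coding TSS.

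Other ZFPs had folds at the same places that were near those of APEX2 at NFE2L2 and mostly lower at TRIM37 and GADD45A, with no test of the difference. At NFE2L2, ZNF22 had folds of 16.8 and 12.4, CISD1 of 17.2 and 8.56, and G2E3 of 9.36 and 10.3. At TRIM37, ZNF22 had folds of 7.92 and 9.05, CISD1 of 10.6 and 7.63, and G2E3 of 5.81 and 4.21. At GADD45A, ZNF22 had folds of 4.94 and 7.20 and CISD1 of 8.35 and 4.58, and G2E3 had no peak. These places are examples, and at others some ZFPs were higher than APEX2. At RPS29 and RN7SL1, CISD1 had folds of 58.1 and 27.8, against 22.2 and 8.35 for APEX2. G2E3 had 16.6 and 9.92 there, and ZNF22 had 4.94 in replicate 1 and no peak in replicate 2. At VPS35, ZNF22 had 14.4 and 6.06, against 9.01 and 8.57 for APEX2, and CISD1 (8.88 and 5.54) and G2E3 (4.98 and 5.42) were lower. All lists were called against mock IP libraries, which comparisons share within a batch, so what these regions owe to the control cannot be told apart from what they owe to the tagged protein.

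Of the regions with no annotated TSS within 1 kb and without satellite repeats, the highest had folds of 9.46 and 13.4. It lay on chromosome 1 at 16368 bp from LINC02809 and 22526 bp from ARF1. A region at the end of chromosome 12, 2028 bp from DDX11L8, had folds of 12.7 and 9.10. Regions 5229 bp from AHRR (7.78 and 8.09), 5584 bp from SLC22A31 (9.55 and 7.65) and 14483 bp from GALNT9 (7.58 and 10.4) followed. The others named by the same rule lay 40662 bp from FCGR2A (7.55 and 8.31), 14951 bp from EEF2K (7.41 and 10.1) and on an unlocalized contig of chromosome 17 (8.26 and 9.98). For AHRR, FCGR2A and EEF2K these are the nearest protein-coding starts. Starts of other genes lay nearer to those regions, at 3012, 5755 and 14893 bp. The contig had no annotated start, so no distance could be given for its region. All of the regions named by this rule had peaks in 10 to 26 other ZFPs. The 35 satellite-like regions, whose summit window held 5 or more copies of ATTCC or its reverse complement GGAAT, had lower folds, with medians of 2.78 and 2.40, and were found in 20 to 35 other ZFPs.

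The regions absent from every other list are shown next. Only 46 of the 1367 APEX2 regions (3.37%, exact 95% binomial interval 2.47% to 4.46%, counting error only) overlapped no peak in the 70 lists of the 35 other ZFPs. With no other peak allowed within 1 kb the share fell to 1.90%. When only regions found in both replicates of another ZFP were counted, it was 39.0% (533 regions). The other ZFPs with at least 20 regions had mean shares of 1.48% and 9.77% in these settings. These 46 regions had low folds: their lower fold ran from 3.71 to 6.16 with a median of 4.50, against 4.87 for the regions found elsewhere too, and the first of them was at rank 218 of all APEX2 regions. Their median −log10 q was 2.49 in replicate 1 and 3.16 in replicate 2, against 3.79 and 4.23 over all 1367 regions. Of the 46, 39 lay within 1 kb of a protein-coding TSS. The sequences at 4 of the highest are shown to set beside those above, from chr6:31862831-31863031 for NEU1, chr1:207321227-207321427 for CD55, chr18:59359069-59359269 for LMAN1 and chr17:61863226-61863426 for BRIP1, with the same use of capitals.
NEU1: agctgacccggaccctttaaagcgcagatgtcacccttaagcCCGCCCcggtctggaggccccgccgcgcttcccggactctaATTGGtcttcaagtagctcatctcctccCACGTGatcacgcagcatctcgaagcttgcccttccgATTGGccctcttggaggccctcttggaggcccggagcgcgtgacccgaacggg
CD55: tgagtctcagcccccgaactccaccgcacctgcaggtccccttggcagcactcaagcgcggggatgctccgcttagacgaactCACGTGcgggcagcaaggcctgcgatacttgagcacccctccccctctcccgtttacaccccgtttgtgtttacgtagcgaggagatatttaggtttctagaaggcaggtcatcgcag
LMAN1: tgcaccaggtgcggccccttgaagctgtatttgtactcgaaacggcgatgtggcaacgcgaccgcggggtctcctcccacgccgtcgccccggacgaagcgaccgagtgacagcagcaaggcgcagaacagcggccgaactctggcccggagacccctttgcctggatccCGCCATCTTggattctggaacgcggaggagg
BRIP1: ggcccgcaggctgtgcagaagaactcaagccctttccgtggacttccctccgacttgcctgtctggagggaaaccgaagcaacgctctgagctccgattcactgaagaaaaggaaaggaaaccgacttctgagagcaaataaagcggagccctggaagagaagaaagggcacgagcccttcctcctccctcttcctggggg
The NEU1 window held 2 CCAAT boxes and 1 GC box on the minus strand and the E-box CACGTG at position 112, the CD55 window an E-box at position 84, and the LMAN1 window the word of YY1 (AAGATGGCG, here on the minus strand) at position 171. The BRIP1 window held none of the motifs searched, and its GC content was 56.7%.

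NEU1, the lysosomal sialidase, was the highest of the 46, with folds of 8.44 and 6.16 at chr6:31862710-31863044. CD55, a complement regulator, had folds of 5.73 and 6.26 at chr1:207321086-207321563, and LMAN1, a cargo receptor between the endoplasmic reticulum and the Golgi, had folds of 5.44 and 6.55. TCP11L1 had folds of 5.35 and 5.87. BRIP1, a helicase of the Fanconi pathway that binds BRCA1, had folds of 5.19 and 5.39 at chr17:61863063-61863478. IER5, an immediate early gene, had 5.05 and 6.26, and PPP1R2, an inhibitor of protein phosphatase 1, had 5.56 and 4.91. RAB30, a small GTPase of the Golgi, had 4.77 and 4.91. Of the highest ones, 3 were not at a promoter and lay 5318 bp from TTC21A, 17147 bp from SEMA6B and 5080 bp from RPL7, with folds of 4.78 to 5.48. The start of another gene lay nearer than that of TTC21A, at 4506 bp. None of the 46 was satellite-like. Further down, and chosen after their values were seen, were HIF1A, the oxygen-regulated factor (4.31 and 5.44) and PSMD4, a proteasome subunit (4.31 and 9.07). A peak that falls just under the threshold in another list counts as absent, so a region near the threshold cannot be taken as missing there.

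**Figure D3:**
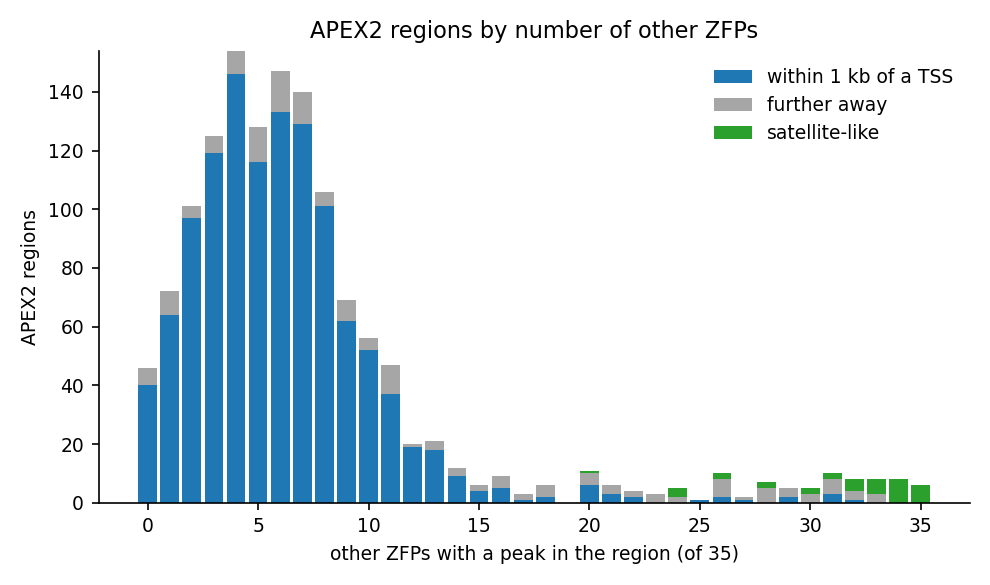
Number of APEX2 regions (y axis) by how many of the 35 other ZFPs had a peak in the region in either replicate (x axis), stacked as within 1 kb of a TSS, further away, and satellite-like. Regions on contigs, which had no annotated TSS, count as further away unless satellite-like. The bar at 0 holds the 46 regions found in no other list, and the satellite-like regions are all at 20 or more.

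The number of other ZFPs followed the kind of site. The median region was found in 6 other ZFPs, 452 regions in 1 to 4, 590 in 5 to 9, 180 in 10 to 19 and 99 in 20 or more. Regions in 1 to 4 others lay within 1 kb of a TSS in 94.2%, and those in 20 or more in 21.2%. Regions in 10 or more others had median folds of 6.06 and 6.20 in the 2 replicates, and regions in none had 4.65 and 5.11.

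Against the other ZFPs, APEX2 had the highest share of regions near a TSS, with an adjusted p above the threshold in a design that could hardly go lower. Its share of 86.0% compared with a mean of 26.3% ± 24.6 (SD, n = 32 ZFPs) over the others with at least 20 regions, of which G2E3 came nearest with 83.3%. ZNF22 (81.9%) and CTCF (73.2%) followed. The exact permutation test, two-sided, of which of the 33 ZFPs is APEX2 gave p = 0.0303, the smallest it can give, and 0.0909 after Benjamini-Hochberg adjustment over 3 measures. With 1 measure alone at the smallest p, the adjusted value cannot fall below that, so missing the threshold says little about the size of the difference. The median GC content at the summits was 68.7% for APEX2 and 50.4% ± 10.4 (SD, n = 32) for the others, with p = 0.0606 and adjusted p = 0.0909 by the same exact permutation test. G2E3 was higher than APEX2, at 70.6%, and ZNF22 (67.7%), CISD1 and CTCF (67.2% each) came near it. The share absent from all other lists was 3.37% for APEX2 and 1.87% ± 3.22 (SD, n = 32) for the others, with p = 0.576 by the exact permutation test and adjusted p = 0.576. This depended on what counted as present elsewhere. With only the both-replicate regions of other ZFPs counted, the share was 39.0% for APEX2 and a mean of 9.77% for the others. The same exact permutation test then gave p = 0.0606 and adjusted p = 0.0606. APEX2 also had the most regions of all ZFPs. CISD1, ZNF22, G2E3, CTCF and GIN1 came next in number of regions and also held the next highest shares near a TSS. CISD1 had 64.8% and GIN1 58.4%. Smaller lists varied, with 12.5% for ZNF574 (520 regions) and 57.2% for PHF7 (299 regions). Whether the share depends on the number of regions was not tested. The ZFPs share mock IP controls, so they are not independent. With all peaks of replicate 1 in place of the regions of both replicates, the adjusted p was 0.333 for the share near a TSS and 0.361 for GC content. Without satellite-like regions in any list, the mean share near a TSS over the others rose to 38.9%, against 88.2% for APEX2. Their mean GC content was then 58.2%, against 69.2% for APEX2, with adjusted p = 0.290 by the same exact permutation test.

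**Figure D4:**
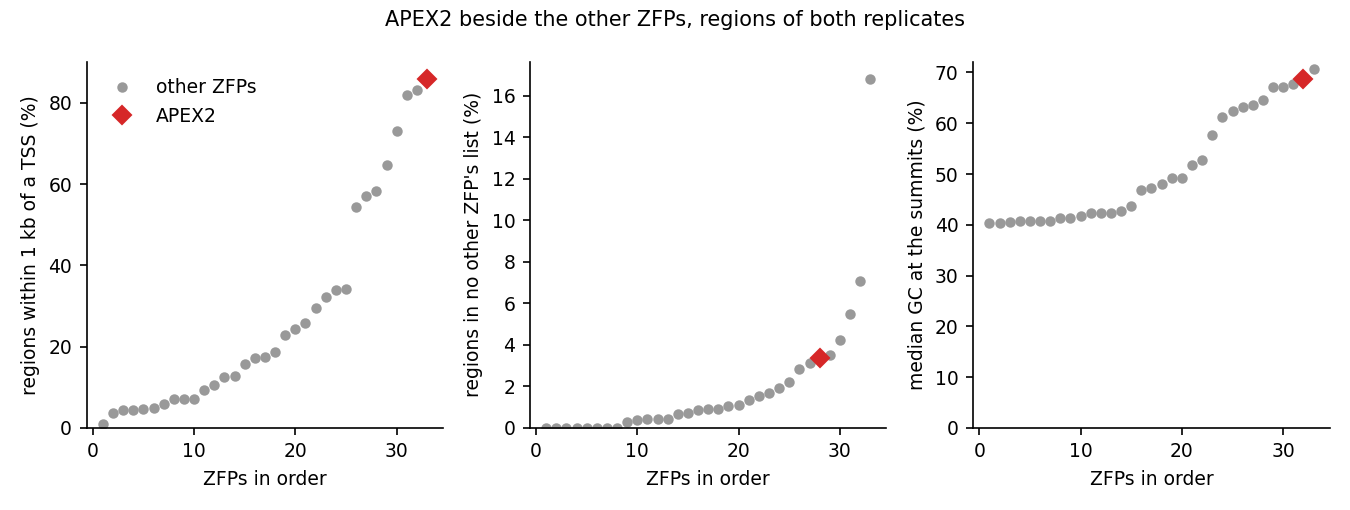
Share of regions within 1 kb of a TSS, share found in no other ZFP's list and median GC content of the summit windows, each in percent on the y axis, for the 33 ZFPs with at least 20 regions in both replicates, in rising order on the x axis. The red diamond is APEX2, at 86.0%, 3.37% and 68.7%.

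The promoters of the APEX2 regions were rich in CpG. A protein-coding TSS within 1 kb was reached for 1286 genes, 6.42% of the 20033 protein-coding genes. At the TSS windows of these genes, 100 bp to each side of the start, 80.2% had a GC content over 55% and a CpG ratio over 0.6, against 56.6% of all genes. Of the genes with such a CpG-rich start 9.10% had an APEX2 region, and of the others 2.92% did. GGGCGG was found in 63.9% of the TSS windows of genes with a region and 47.0% of all, CCAAT in 32.4% and 26.0%, CCGGAAG in 12.4% and 10.2%, and GCGCATGCG in 4.12% and 1.91%. TATAAA was found in 3.34% and 7.09%, TGACTCA in 1.79% and 2.62%, and GAANNTTC, the pair of heat shock units, in 2.18% and 3.59%. CACGTG, TGACGTCA, AAGATGGCG and ACTACAATT were found in 6.45%, 2.26%, 2.80% and 0.156% of the windows of genes with a region, and in 5.88%, 1.87%, 2.04% and 0.245% of all. In the summit windows of the 1066 promoter regions, GGGCGG (68.1%), GCGCATGCG (3.10%) and AAGATGGCG (2.16%) were above the shares in all TSS windows. The other motifs were below those shares: CCAAT in 24.3%, CCGGAAG in 8.82%, CACGTG in 5.25% and TGACGTCA in 1.03%. TATAAA and TGACTCA (0.938% each), GAANNTTC (2.16%) and ACTACAATT (0.0938%) were below them as well. All searches took both strands, and a match is a description of letters, not of a bound factor.

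Genes of the pathways that APEX2 works in were present in small numbers. Of 27 genes of base excision and single-strand break repair, 4 (14.8%) had an APEX2 region in both replicates: PARP1 (4.42 and 4.78), the main sensor of DNA breaks; PARP2 (9.33 and 4.10), its relative; MBD4 (3.77 and 4.23), a glycosylase; and APLF (4.77 and 5.73), a strand break repair factor. The PARP2 region covered the start of RPPH1, the neighbouring RNase P RNA gene, the MBD4 region also reached IFT122, and the APLF region also reached FBXO48. Single replicates reached 11 and 13 of the 27 genes, against 18.9% and 16.4% of all protein-coding genes. Of 19 genes of ATR-CHK1 signalling 2 (10.5%) had a region, CHEK1, the effector kinase (3.77 and 4.23), and TIPIN, a fork protection factor (4.50 and 6.99), whose region also reached MAP2K1. Of 39 replisome genes 3 (7.69%) had one: PCNA, the sliding clamp (6.36 and 5.73), ORC2 (5.56 and 6.41) and ORC6, whose region also reached VPS35. Every one of these regions also had peaks of other ZFPs. The number of other ZFPs was 21 at PARP2, 13 at MBD4, 11 at ORC6, 7 each at TIPIN and ORC2, 5 each at PARP1 and PCNA, 3 at CHEK1 and 1 at APLF. Set beside 6.42% of all genes and 9.10% of genes with a CpG-rich start, the shares of the lists are descriptions of few genes.

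Stress-related genes showed shares above that background, also as descriptions. Among heat shock chaperones 6 of 25 genes (24.0%) had a region, with a median lower fold of 4.85, against 4.87 over the 1286 genes with a region. They included HSPA1B, an inducible HSP70 gene (5.13 and 4.83), and the shared start of HSPD1 and HSPE1, the mitochondrial chaperonins (6.01 and 6.04). Of 24 genes of the unfolded protein and integrated stress response 5 (20.8%) had one, among them DDIT3 (6.25 and 5.77) and ATF4 (3.79 and 6.01), 2 transcription factors of that response. The DDIT3 region also reached MBD6. Of 30 immediate early genes 5 (16.7%) had one, EGR1 (7.64 and 12.1), KLF10 (5.56 and 6.55), FOS (9.19 and 4.43), ATF3 (5.63 and 4.63) and IER5. Except for IER5, the stress gene regions named here also had peaks of other ZFPs. The number of other ZFPs was 10 at HSPD1 and HSPE1, 9 at EGR1, 5 at KLF10 and 4 at HSPA1B. It was 3 each at DDIT3, ATF4 and ATF3 and 2 at FOS. The shares of these lists in the other ZFPs were not counted. Replication-dependent histones (7 of 69, 10.1%) and ribosomal protein genes (7 of 86, 8.14%) were nearer the background. Among the histones, H2AC11 and H2BC11 shared a region, and so did H2AC25 and H2BC26. None of 26 interferon response genes had a region, which allows a share of up to 11.5%, and single replicates reached 1 gene each.

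**Figure D5:**
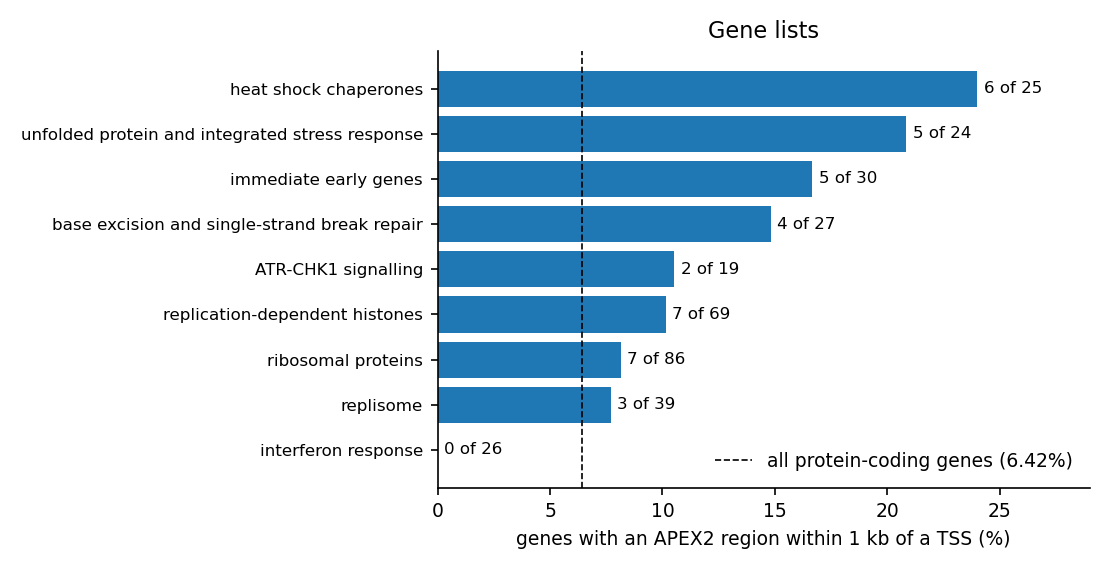
Percent of the genes of each list with an APEX2 region of both replicates within 1 kb of a TSS (bars, with counts), and the share of all protein-coding genes, 6.42% (dashed line). Shares run from 0 for the interferon response to 24.0% for heat shock chaperones.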

How the data were processed

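Cut&Run in HEK293T cells was used for 2 APEX2 replicates, each 1 well, with a stated depth of 10 M reads. No source used here gives read totals or batches. The number of peaks per list ran from 15 to 8702 in the series, and it is not a measure of depth. Per the study's methods and the labels, reads were trimmed with Trimmomatic 0.36, aligned to hg38 with Bowtie2 2.3.5.1, stripped of PCR duplicates with Picard, and peaks were called with MACS2 2.2.7.1 in each library against the same-batch V5 mock IP. The lists deposited by the authors hold, for each peak, the fold (a linear ratio over mock IP at the summit), the −log10 of p and of q, and a score made from q. The lowest −log10 q in any list was 1.30, and the deposited fold takes few distinct values (490 and 483 among the regions), so many regions tie.

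Samples were grouped by their titles. Peaks of the 2 replicates that overlapped by at least 1 bp were merged, and a region's fold is the highest of a replicate's peaks. Regions on exons of the tagged gene or within 1 kb of EEF1A1 were set apart. Distances run from a region's nearest edge to a GENCODE 44 TSS, and sequence was read from hg38 100 bp to each side of the summit, taken as the midpoint of both replicates' summits. Overlap, distance and permutation code was tested on simulated data, where all 200 planted shared regions were found and 0 others. The named regions are, by lower fold, the 20 highest within 1 kb of a protein-coding TSS, the 8 highest away from TSSs without satellite repeats and the 12 highest in no other list, with the regions of the repair, ATR-CHK1 and replisome lists. A few of these regions are not reported here. The members, gene lists and motifs were chosen with earlier results of these data known. APEX2 was set against the other ZFPs with an exact permutation test of which ZFP carries its name. Reciprocal overlap, summit distance, stricter q, other TSS distances and annotations, single replicates and the loss of satellite-like regions were tried as alternatives. Python 3.11.15, numpy 2.4.6, pandas 2.3.3, pysam and bedtools 2.31.1 were used.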

Additional observations from a re-analysis of the deposited data

How the results depend on the processing

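The count of APEX2 regions was 621 with −log10 q of at least 3, 738 with a reciprocal overlap of at least 50% and 1031 with summits within 200 bp, against 1367. The protein-coding genes with a region within 1 kb numbered 544, 651 and 979 under these settings, against 1286, and 3279 to 3781 when either replicate was used alone. The share near a TSS and the share absent from other lists kept their direction against the other ZFPs and stayed above the adjusted threshold under the alternatives run for each, and so did GC content under its alternatives, which were the wider window, single replicates and the loss of satellite-like regions. The adjusted p could hardly pass in this design, so this says nothing about stability. The share absent from other lists was 32.8% with replicate 1 alone and 25.1% with replicate 2 alone. The means of the other ZFPs were then 17.2% and 19.9%. Without the libraries labelled U2AF1, an alternative chosen after seeing the data, the share absent from other lists was 3.37%, and the other 2 values of APEX2 do not use those lists. The 48 named folds did not move when the peak with the lowest q was used. No paired analysis was possible because the results come from peak lists with no test across replicates. The number of peaks limits the regions that can be found in both replicates. Why a region is absent from a list was not tested.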
